A study of Mus musculus with 12 samples.

Results

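Tbx19, Luzp1, Maged1 and Amotl1 are 4 of the 12151 genes measured by RNA-seq in 12 libraries of mouse pre-B cells that carry the BCR–ABL1 oncogene. Such cells serve as a mouse model of B cell leukemia (B-ALL). The 4 genes were chosen from measured values of these same libraries, because they had some of the largest rises in libraries carrying the double-knockout label for the Ikaros factors Ikzf1 and Ikzf3 (KO) over libraries edited with a nontargeting guide (WT), both with and without stabilized β-catenin. That rise is therefore described here and not tested. Differences were common, and 59.0% of all genes were called different between KO and WT in ERT2 cells and 58.9% in Cre-ERT2 cells. All cells came from mice of 6 to 12 weeks that carry 1 Ctnnb1 copy with a loxP-flanked exon 3 (Ctnnb1Ex3fl/+), all were edited with Cas9 ribonucleoprotein (sgNTC, or sgIkzf1 with sgIkzf3), and clonal lines were grown from single cells. WT and KO cells each received ERT2, the control vector, or Cre-ERT2, which 4-OHT activates to excise the exon that marks β-catenin for degradation, and GFP+ cells were sorted. Crossing editing with vector gives 4 groups of 3 replicates each. The protocol gives day 1 of 4-OHT in wording written for ChIP-seq. The labels do not say whether replicates are separate lines or cultures, so the P values measure only the spread between these libraries, which may be technical, and a difference between a few lines and an effect of editing cannot be told apart.

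The 4 genes act in different places in a cell. Tbx19 (also called Tpit) is a T-box transcription factor, best known for driving Pomc, the precursor of adrenocorticotropic hormone, in the corticotroph cells of the pituitary. Luzp1 is a leucine zipper protein of the actin cytoskeleton and the centrosome that limits the formation of primary cilia. Maged1 (also called NRAGE) is an adaptor of the MAGE family that binds the neurotrophin receptor Ngfr and ubiquitin ligases. Amotl1 is a motin, a scaffold at cell junctions that binds YAP, the coactivator held back by the Hippo kinases. Ikaros (Ikzf1) and Aiolos (Ikzf3) are zinc finger factors of B cell development that bind DNA with the core GGGAA and can recruit repressive chromatin complexes.

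The guides that define the KO label are shown because the choice of the 4 genes rests on it. Both matched coding sequence of their target gene on chromosome 11 (GRCm38), in 5 of 6 annotated transcripts of Ikzf1 at chr11:11707798-11707817 (antisense to the gene) and in 1 of 4 of Ikzf3 at chr11:98490523-98490542 (sense), each followed by the PAM GGG.
Ikzf1 guide: ctggagtgtcactgactggg
Ikzf3 guide: attatgaagccggagcccat

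As a check of the labels, Ikzf1 mRNA was higher, not lower, under the KO label. Its level was 13.75, 13.74 and 13.73 in the ERT2 WT libraries, against 14.75, 14.74 and 14.76 in the ERT2 KO libraries, on the authors' normalized log2 scale that all levels below use. Ikzf3 mRNA was lower, with means of 11.63 (SD 0.049, n = 3) in the ERT2 WT and 10.98 (SD 0.014, n = 3) in the ERT2 KO group. Gene-level values do not show frameshifts, so KO below means labelled KO, and each direction between KO and WT rests on that label. The table gives no read counts, so depth is unknown and the precision of a value comes from its replicates. Of the pre-B cell markers examined, 12 of 12 were in the table, and their summed unlogged level lay between 147600 and 149500 in ERT2 WT and between 103900 and 104500 in ERT2 KO libraries. Such a sum is weighted to the most abundant markers, and the 12 did not move together. In ERT2 KO cells 2 were called higher, 8 lower and 2 neither, with differences from -1.07 to 0.38. Over all genes 29.8% were called higher and 29.3% lower. Of 44 markers of myeloid, T, erythroid, stromal, endothelial and corticotroph cells, 5 were in the table and the other 39 were not analysed here. These moved in both directions in ERT2 KO cells. Of the myeloid markers Lyz2 was higher by 0.99 while Itgam (-0.15) and Fcgr3 (-0.36) were lower, and their summed level went from between 239.6 and 241.0 to between 385.0 and 405.5. The T cell marker Cd5 was higher by 0.13 and the endothelial marker Pecam1 lower by 1.03 on the log2 scale. The part of such cells in the rise of the 4 genes was not tested. In these bulk samples, more cells expressing a gene and more RNA per cell cannot be told apart.

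The promoters of the 4 genes are shown because Ikaros factors bind DNA through GGGAA. RefSeq gives 1 start for each gene, and the 250 bases before it were searched (GRCm38.p6, 5′ to 3′ on the strand of the gene, GGGAA and its reverse complement TTCCC in capitals). Stretches that GENCODE M21 places in an exon of the gene are left out, which shortens the windows of Maged1 and Amotl1.
Tbx19 (chr1:165160774-165161023, minus strand): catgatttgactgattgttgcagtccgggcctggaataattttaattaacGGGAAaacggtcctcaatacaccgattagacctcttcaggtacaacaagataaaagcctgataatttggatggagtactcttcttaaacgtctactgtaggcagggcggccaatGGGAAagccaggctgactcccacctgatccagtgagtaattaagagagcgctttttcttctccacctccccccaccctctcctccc
Luzp1 (chr4:136469511-136469760, plus strand): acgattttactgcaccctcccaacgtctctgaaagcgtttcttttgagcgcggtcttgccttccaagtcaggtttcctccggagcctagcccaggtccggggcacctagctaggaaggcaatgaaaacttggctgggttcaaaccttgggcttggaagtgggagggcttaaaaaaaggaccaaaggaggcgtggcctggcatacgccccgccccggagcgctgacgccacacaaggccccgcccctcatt
Maged1 (chrX:94542144-94542275, minus strand): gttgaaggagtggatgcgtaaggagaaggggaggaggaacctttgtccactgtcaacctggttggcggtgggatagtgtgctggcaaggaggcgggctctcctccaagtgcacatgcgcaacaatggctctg
Amotl1 (chr9:14615007-14615200, minus strand): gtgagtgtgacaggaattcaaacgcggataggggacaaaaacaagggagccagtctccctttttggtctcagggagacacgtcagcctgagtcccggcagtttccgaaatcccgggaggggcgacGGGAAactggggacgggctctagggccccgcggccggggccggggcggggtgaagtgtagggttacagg

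Tbx19 held GGGAA 2 times, its first base 200 and 86 bases before the start. Maged1 held it once, 102 bases before the start in the part not printed, Amotl1 once, 75 bases before it, and the Luzp1 window held none. On both strands together, 56.2% of 32851 RefSeq promoter windows held at least 1 GGGAA, as did 58.3% of the 10927 windows of genes in the table, and 21.2% and 23.8% held 2 or more. Having the motif in 3 of 4 promoters thus sets these genes little apart from promoters at large. The searched letters CTTTGAT (a TCF/LEF site), GGAATG (a TEAD site) and GGTGTGA (a T-box site) occurred in none of the 4 windows, while 3.21%, 12.6% and 3.33% of all windows held them. A match is a description of letters and not a binding site, and the Amotl1 window lies at an internal start, since GENCODE places the start of the gene at 14645056 on chromosome 9.

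Tbx19 (ENSMUSG00000026572, chromosome 1, 165137855 to 165160773, minus strand, GRCm38) had the largest difference of the 4 genes. Its level was 7.13, 7.15 and 7.14 in the ERT2 WT libraries and 7.43, 7.53 and 7.60 in the Cre-ERT2 WT libraries. In ERT2 KO libraries it was 11.68, 11.72 and 11.72, and in Cre-ERT2 KO libraries 12.13, 12.16 and 12.11. All 4 groups were apart from each other (65.5% of all genes had KO and WT libraries that did not overlap in ERT2 cells and 63.6% in Cre-ERT2 cells, as did all 4 genes of this set), with every Cre-ERT2 library above every ERT2 library of its background and every KO library far above every WT library. The KO minus WT difference was 4.57 (SE 0.037) in ERT2 and 4.61 (SE 0.037) in Cre-ERT2 cells, or 23.7-fold and 24.5-fold if the values are read as plain log2. A processed pseudogene on the same strand, Gm16550, overlaps Tbx19, is not analysed here and could share reads with it.

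Luzp1 (ENSMUSG00000001089, chromosome 4, 136469761 to 136554780, plus strand) was nearly flat within each background. It lay at 7.03, 7.15 and 7.23 in ERT2 WT, and at 6.99, 7.05 and 7.07 in Cre-ERT2 WT libraries. The KO libraries lay at 11.07, 11.06 and 11.10 with ERT2, and at 11.17, 11.14 and 11.17 with Cre-ERT2. The WT groups overlapped, and no KO library came near a WT library. The KO minus WT difference was 3.94 (SE 0.044) in ERT2 and 4.12 (SE 0.044) in Cre-ERT2 cells (15.4-fold and 17.4-fold). Luzp1 overlaps Kdm1a, a histone demethylase gene on the opposite strand, which rose by 0.22 in ERT2 KO cells (SE 0.023, limma adjusted p 2.79e-06), and whether the authors' quantification used strand is not stated.

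Maged1 (ENSMUSG00000025151, X chromosome, 94535474 to 94542143, minus strand) was the steadiest of the 4 in KO cells. In WT cells it was at 7.41, 7.26 and 7.38 with ERT2 and at 7.54, 7.60 and 7.48 with Cre-ERT2, so that the Cre-ERT2 libraries lay just above the ERT2 libraries. In KO cells it was at 10.92, 10.89 and 10.94 with ERT2 and at 10.89, 10.89 and 10.89 with Cre-ERT2, a range of 0.052 over 6 libraries. The KO minus WT difference was 3.57 (SE 0.040) in ERT2 and 3.35 (SE 0.040) in Cre-ERT2 cells (11.8-fold and 10.2-fold).

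Amotl1 (ENSMUSG00000013076, chromosome 9, 14541966 to 14645056, minus strand) started from the highest WT level of the 4. Its WT libraries were at 9.16, 9.21 and 9.06 with ERT2 and at 9.06, 9.03 and 9.16 with Cre-ERT2, and these groups overlapped. Its KO libraries were at 12.36, 12.32 and 12.39 with ERT2 and at 12.49, 12.45 and 12.40 with Cre-ERT2. The KO minus WT difference was 3.21 (SE 0.043) in ERT2 and 3.37 (SE 0.043) in Cre-ERT2 cells (9.26-fold and 10.3-fold). Amotl1 is overlapped by 4930584E12Rik on its own strand and by Gm34263 on the other, neither of which is analysed here.

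**Figure D1:**
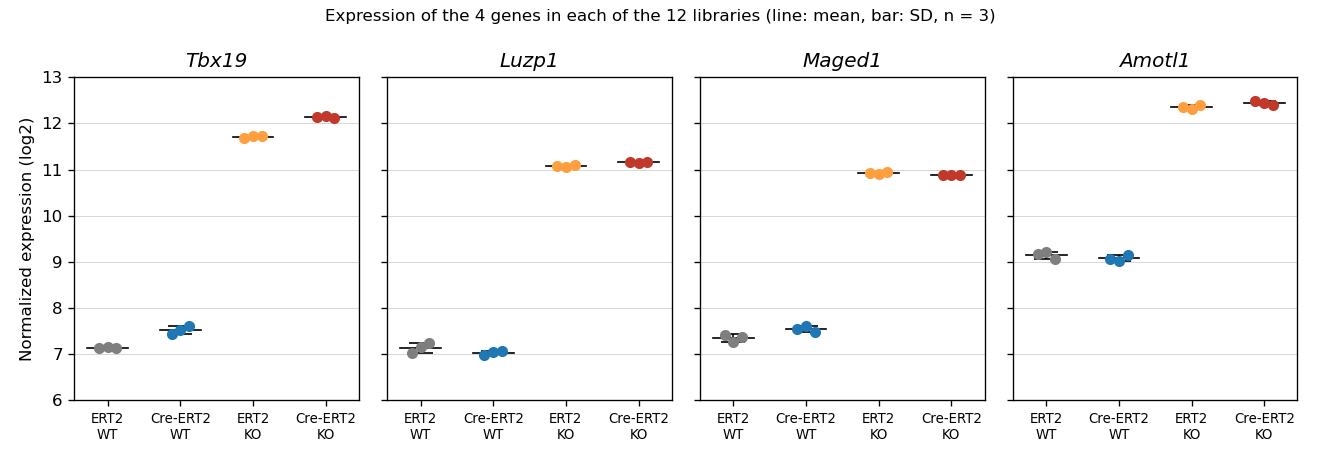
Normalized expression (log2, vertical axis from 6 to 13) of Tbx19, Luzp1, Maged1 and Amotl1 in each library (points) of the 4 groups, with the mean (line) and SD (bar, n = 3). In all 4 panels the KO libraries lie above the WT libraries by at least 3 log2 units, and the Cre-ERT2 libraries lie clearly above the ERT2 libraries of both backgrounds for Tbx19.

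The 4 genes could be described as switched on in KO cells. For Tbx19, Luzp1 and Maged1 the data show rises from low values but cannot show a start from 0. That name suits Amotl1 less. Its WT means of 9.14 with ERT2 and 9.08 with Cre-ERT2 lay near the median over all genes, 9.06 to 9.11 by library. The lowest value in the table is 1.76, yet low ends differ by gene. Tead1 held 6.66 to 6.68 in all 6 WT libraries, Uaca 6.67 to 6.69, Mmrn1 6.69 to 6.72 and Mmp2 6.71 to 6.77, near-constant values for genes that reached 10.50 to 12.09 in KO libraries. Over the same 6 libraries Tbx19 spanned 0.469, Maged1 0.340, Luzp1 0.240 and Amotl1 0.181. The span of Tbx19 covers both WT groups. In the ERT2 WT libraries alone Tbx19 was near constant too, at 7.13 to 7.15 (SD 0.0072), and its Cre-ERT2 WT libraries lay at 7.43 to 7.60. Without read counts, the amount of RNA behind a WT level near 7 is unknown, and differences from it may understate the change. The spread between replicates was no larger at means of 6 to 8 (median SD 0.041 over 1866 genes) than at 8 to 10 (0.046 over 3319 genes).

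In the order of rises in ERT2 cells over all genes, Tbx19 was 1, Luzp1 5, Maged1 7 and Amotl1 10. In Cre-ERT2 cells the same genes were 2, 5, 8 and 7. Among genes with a mean above that of the median gene, with no overlap between KO and WT, the genes above the 4 or between them were Mmp2 in both settings and Gm5537 in ERT2 cells. Tbx19, Luzp1 and Maged1 passed this mean filter only through their KO libraries. In ERT2 cells it left out Mmrn1 (4.26), Tead1 (3.94), Uaca (3.94) and H19 (3.32), which lay between the 4 in the order over all genes. Mmp2, a matrix metalloproteinase, differed by 4.24 and 5.33. Gm5537 differed by 3.49 in ERT2 but by 0.96 in Cre-ERT2 cells. The next genes under this filter in ERT2 cells were Fetub (3.01 and 3.09), the endothelial coreceptor Eng (2.32 and 2.35) and the kinase gene Prkch (2.32 and 2.16). Amotl1, the smallest rise of the 4 in ERT2 cells, was thus 0.20 above Fetub. Over all genes Ak4 (3.13) followed Amotl1 directly.

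**Figure D2:**
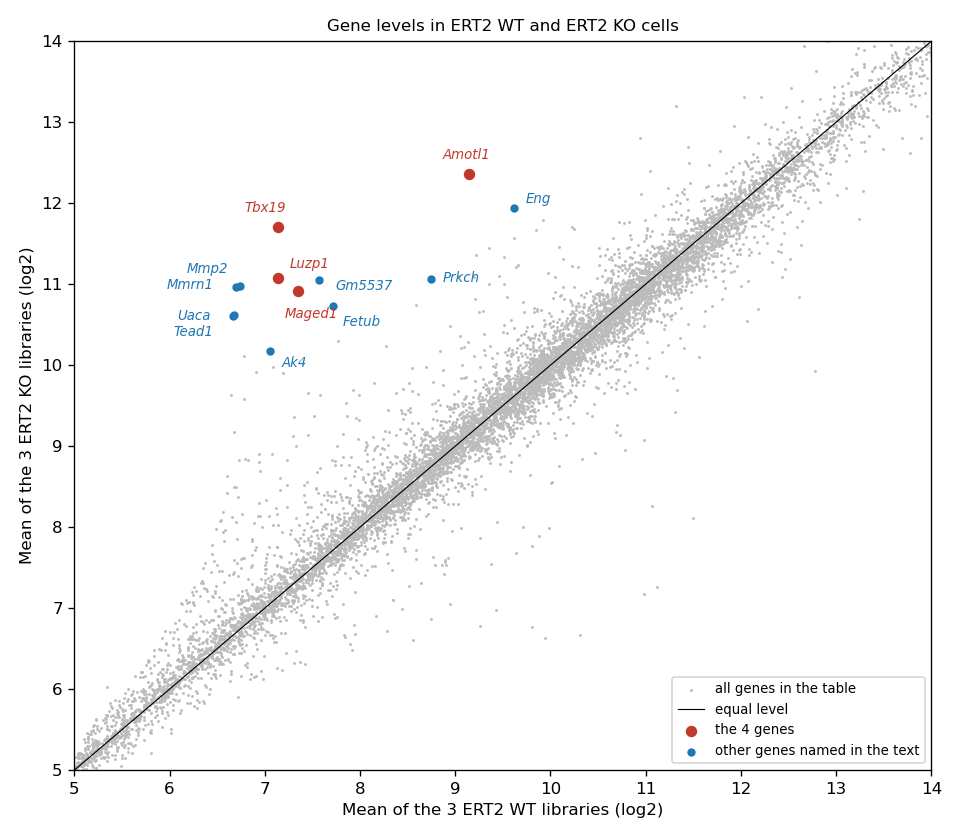
Mean log2 level of each gene in the 3 ERT2 KO libraries (vertical axis) against the 3 ERT2 WT libraries (horizontal axis), for levels of 5 to 14, with the line of equal level. The 4 genes (red) lie far above the line, beside other genes with large rises (blue), and Amotl1 lies to the right of the other 3 because its WT level is 9.14.

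Levels of different genes were compared per kilobase of merged exons. In ERT2 KO libraries Tbx19 came first at 10.03, ahead of Amotl1 at 9.02, Maged1 at 8.80 and Luzp1 at 8.06 (log2 per kilobase). No neighbours in this order overlapped, since the lowest Amotl1 library (8.98) was above the highest Maged1 library (8.82). Among the 12111 genes with an annotated length, Tbx19 exceeded 91.3%, Amotl1 81.8%, Maged1 79.2% and Luzp1 68.0%. In ERT2 WT libraries the values were 5.81 for Amotl1, 5.47 for Tbx19, 5.23 for Maged1 and 4.12 for Luzp1, but no order is read from them, since low ends differ by gene. Merged exon length counts exons of all annotated transcripts (10064 bases for Amotl1), so a gene using short transcripts would rank too low.

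Stabilization of β-catenin, which was not used to choose the genes, was tested in each background. Tbx19 rose with Cre-ERT2 in both, Maged1 rose in WT cells, and neither Luzp1 nor Amotl1 passed the test in either. Tbx19 rose by 0.38 in WT cells (SE 0.037, 95% interval 0.30 to 0.46, limma adjusted p 2.51e-05) and by 0.43 in KO cells (SE 0.037, 95% interval 0.35 to 0.51, limma adjusted p 6.89e-06), with 3 of 3 Cre-ERT2 libraries above all ERT2 libraries each time. These are rises of 1.30-fold and 1.35-fold. The difference between the backgrounds was 0.046 (95% interval -0.068 to 0.16, limma adjusted p 0.727). In ERT2 WT libraries Tbx19 was near constant at its low end (SD 0.0072). The WT rise may therefore be understated, and the 2 effects cannot be called alike. Across all genes, 11.9% were called in WT cells and 12.6% in KO cells, beside 2 of 4 and 1 of 4 of these genes.

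Maged1 rose by 0.19 in WT cells (SE 0.040, 95% interval 0.10 to 0.28, limma adjusted p 0.00754), where the groups did not overlap. Fitted to the 6 WT libraries alone, the same rise lost the call (adjusted p 0.0593). In KO cells its difference was -0.028 (SE 0.040, 95% interval -0.11 to 0.059, limma adjusted p 0.725). The difference between the backgrounds, -0.22 (SE 0.056, 95% interval -0.34 to -0.096), was just past the threshold (limma adjusted p 0.0489), which 4.53% of all genes passed. It lost the call in 10 of the 12 fits that left out a library, and under most other settings.

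Luzp1 differed by -0.099 in WT cells (95% interval -0.19 to -0.0036, limma adjusted p 0.184) and by 0.083 in KO cells (95% interval -0.012 to 0.18, limma adjusted p 0.266). Amotl1 differed by -0.065 (95% interval -0.16 to 0.028, limma adjusted p 0.394) and by 0.090 (95% interval -0.0032 to 0.18, limma adjusted p 0.215). The differences between backgrounds were 0.18 for Luzp1 and 0.15 for Amotl1 and did not pass the test (limma adjusted p 0.138 and 0.204). Without ERT2 WT replicate 1, Luzp1 was called lower in WT cells (-0.15, limma adjusted p 0.0181) and its difference between backgrounds was called (0.24, limma adjusted p 0.0176). Exact 2-sided permutation tests of 3 against 3 libraries allow no p below 0.1. That value, reached whenever 2 groups do not overlap, applied to 31.1% of all genes in WT and 28.3% in KO cells. It was reached by Tbx19 and Maged1 in both backgrounds and by Luzp1 and Amotl1 in KO cells. The intervals hold every response of the 4 genes to β-catenin below 0.51 on the log2 scale, while the KO minus WT differences were 3.21 to 4.61.

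**Figure D3:**
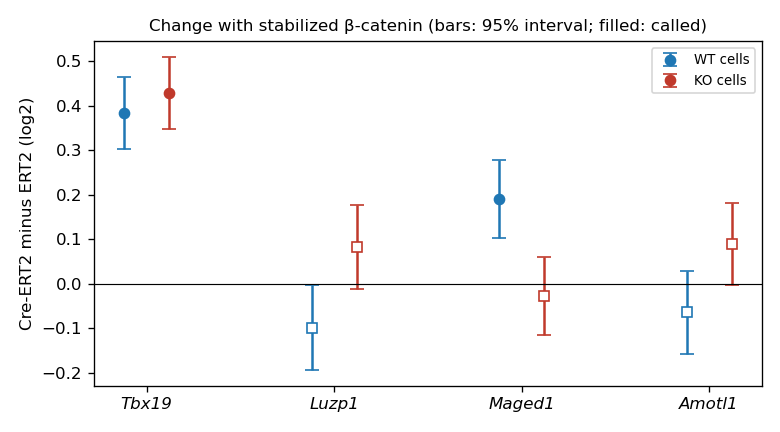
Change of the 4 genes with stabilized β-catenin (Cre-ERT2 minus ERT2, log2, vertical axis) in WT (blue) and KO (red) cells, with 95% intervals from limma; filled circles passed an adjusted p under 0.05 and open squares did not. Tbx19 lies near 0.4 in both backgrounds, Maged1 at 0.19 in WT cells and -0.028 in KO cells, and the other intervals reach 0 or nearly so.

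The rise was far smaller in the measured relatives of Tbx19, Maged1 and Amotl1, and no family of Luzp1 was examined. In ERT2 cells, 29.8% of all genes were called higher in KO than in WT, and 29.3% lower, and in Cre-ERT2 cells 30.4% higher and 28.6% lower. These shares are the background for the counts of every list below, and no departure from them was tested. Of 16 T-box relatives of Tbx19, 2 were in the table and neither was called. Mga, a repressor that pairs with Max, was at 11.83 in ERT2 WT and 11.84 in ERT2 KO libraries, and Tbx6 was at 2.54 and 2.55. Tbx6 was near constant at a low end, at 2.53 to 2.56 in all libraries, where a change may not be visible. The differences, 0.016 for Mga and 0.0053 for Tbx6, change sign when each library is centered on its median (-0.016 and -0.027).

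Of 16 MAGE relatives of Maged1, 3 were in the table. Mageh1 rose by 0.34 in ERT2 KO cells (SE 0.034, limma adjusted p 2.07e-06), from 7.02, 7.04 and 7.04 to 7.35, 7.36 and 7.40. Maged2, a close relative, rose by 0.22 (SE 0.050, limma adjusted p 0.00236), from 7.11, 7.07 and 6.92 to 7.30, 7.17 and 7.27. Both kept their groups apart and rose in Cre-ERT2 cells as well, by 0.31 and 0.26. Ndnl2 differed by -0.037 (limma adjusted p 0.230). Amot, the measured motin of the 2 relatives of Amotl1, rose by 0.41 in ERT2 KO cells (SE 0.058, limma adjusted p 5.11e-05), from 7.37, 7.57 and 7.50 to 7.89, 7.93 and 7.86, and by 0.47 in Cre-ERT2 cells. With stabilized β-catenin Amot differed by 0.18 in WT cells (limma adjusted p 0.0659) and rose by 0.24 in KO cells (limma adjusted p 0.0175), and these effects were not shown to differ (0.059, limma adjusted p 0.793).

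For the pituitary program in which Tbx19 acts, 5 of 15 listed genes were in the table, and Pomc, Pcsk1, Neurod1 and Pitx1 were not among them. In ERT2 KO cells 3 of the 5 rose and 2 fell, with a median of 0.10 against 0.0016 over all genes. The cytokine receptor genes Lifr (0.45, SE 0.051) and Il6st (0.10) and the orphan receptor gene Nr4a1 (0.12) rose. Insm1, a zinc finger factor of endocrine cells, fell by 1.40 (SE 0.039, limma adjusted p 8.68e-12), from 9.27, 9.20 and 9.31 to 7.89, 7.83 and 7.87. Nr3c1, the glucocorticoid receptor gene, fell by 0.41 (SE 0.031). The largest change among these genes thus ran opposite to that of Tbx19.

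Of the actin and cilium genes related to Luzp1, 25 of 30 were in the table, and 9 rose, 7 fell and 9 were not called in ERT2 KO cells (median 0.014). Cep164, needed for docking the basal body that bears a cilium, rose most, by 1.36 (SE 0.031, limma adjusted p 1.27e-12), from 11.01, 11.07 and 11.05 to 12.38, 12.38 and 12.44. The actin crosslinker gene Actn1 (0.45), the intraflagellar transport gene Ift88 (0.41) and the cilium GTPase gene Arl13b (0.35) also rose. Cep97, whose product with that of Ccp110 caps centrioles, fell by 0.62 (SE 0.074), and Ccp110 fell by 0.24. The filamin gene Flna fell by 0.55. Calls on both sides were also common over all genes, with 29.8% higher and 29.3% lower.

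Of the partners of Maged1, 8 of 15 were in the table, and 2 rose and 4 fell in ERT2 KO cells (median -0.090). The rises were those of the ubiquitin ligase genes Pja1 (0.28, SE 0.043), whose product binds Maged1, and Pja2 (0.17, SE 0.026). Among the falls were those of Bmi1 (-0.41, SE 0.065), a Polycomb gene, and of Xiap (-0.12) and Trp53 (-0.098). Ngfr was not analysed here.

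Of 32 listed genes of the Hippo pathway, to which Amotl1 belongs, 21 were in the table. In ERT2 KO cells 7 rose, 7 fell and 7 were not called (median 0.015), near the shares over all genes of 29.8% higher and 29.3% lower. Tead1, a DNA-binding partner of YAP, rose by 3.94 (SE 0.041, limma adjusted p 1.17e-15), from 6.67, 6.68 and 6.66 to 10.67, 10.51 and 10.66. The scaffold gene Frmd6 rose by 1.57 (SE 0.031), from 9.69, 9.62 and 9.61 to 11.19, 11.21 and 11.23. The scaffold gene Wwc2 rose by 0.55 (SE 0.028) and the phosphatase gene Ptpn14 by 0.44 (SE 0.035). The kinase gene Stk4 fell by 0.69 (SE 0.020), from 14.13, 14.16 and 14.18 to 13.49, 13.45 and 13.46, and Stk3 (-0.21), Mob1b (-0.21) and Mob1a (-0.14) fell less. Yap1 and Wwtr1, whose products motins bind, were not analysed here.

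Of enzymes and scaffolds that control the stability of motins, 10 of 10 listed genes were in the table, and 2 rose and 5 fell in ERT2 KO cells. Nedd4, a ubiquitin ligase gene, rose by 1.10 (SE 0.024, limma adjusted p 8.26e-13), and Siah2 by 0.49 (SE 0.032). Magi1 (-0.44), the tankyrase gene Tnks2 (-0.32), Rnf146 (-0.23), Uchl3 (-0.18) and Itch (-0.081) fell. Of genes used as readouts of YAP and TEAD, 11 of 20 were in the table, and 5 rose and 3 fell. Crim1 rose by 1.60 (SE 0.039), followed by Asap1 (0.36), Axl (0.34) and Ajuba (0.20), while Foxf2 (-0.35), Nt5e (-0.18) and Birc5 (-0.086) fell. In Cre-ERT2 cells 5 of these targets were called higher and 1 lower.

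Of the junction and polarity genes, 15 of 30 were in the table, and 7 rose and 3 fell in ERT2 KO cells (median 0.054). Ctnna1, which encodes the α-catenin that links cadherin complexes to actin, rose by 1.48 (SE 0.023, limma adjusted p 4.82e-14), from 10.23, 10.26 and 10.21 to 11.71, 11.70 and 11.72. Pard6g (0.70), Cldn12 (0.54) and Mpp5 (0.19) rose, and Inadl (-0.51) and Pard6b (-0.036) fell. Apart from Tead1, no listed gene differed by as much as any of the 4 genes, which were chosen for their large rises.

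**Figure D4:**
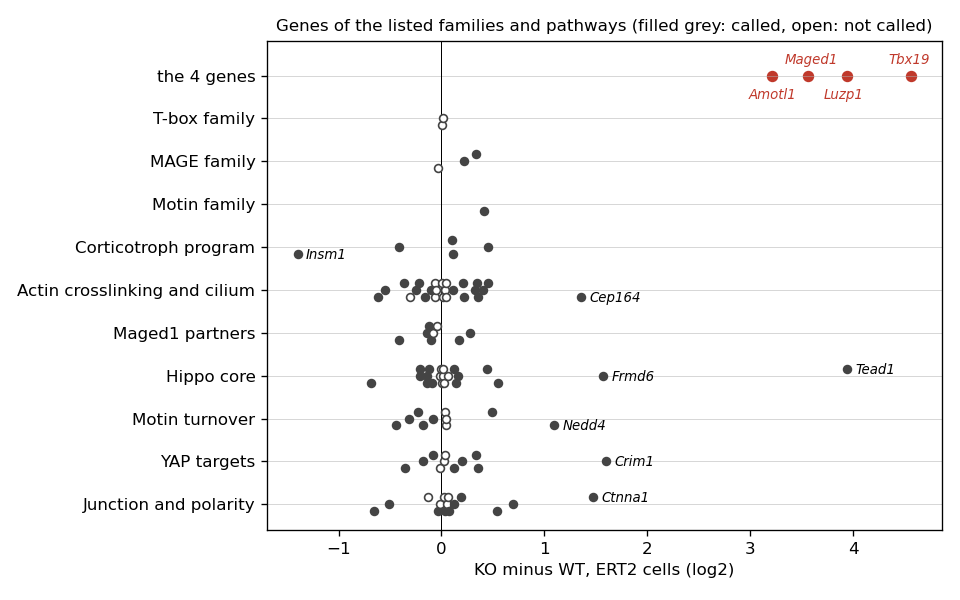
KO minus WT difference in ERT2 cells (log2, horizontal axis) for every measured gene of each list, with the 4 genes in red on top; filled points passed an adjusted p under 0.05 and open points did not. Most listed genes lie within 0.7 of 0, and those beyond 1 in either direction are Tead1, Crim1, Frmd6, Ctnna1, Cep164, Nedd4 and Insm1.

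None of the measured genes beside the 4 on their chromosomes had a rise of that size, for which the 4 genes were chosen. Of the 3 nearest measured genes on each side of each gene, 24 in all at 33.7 to 856.7 kb between start sites, 11 rose, 5 fell and 8 were not called in ERT2 KO cells. Over all genes 29.8% were called higher and 29.3% lower, and whether the neighbours depart from these shares was not tested. The median difference of the 24 neighbours was 0.011. The largest rise was that of Endod1 beside Amotl1 (0.88, SE 0.026, limma adjusted p 1.81e-11), which went from 8.87 to 9.76 on average, and the largest fall that of Atp1b1 beside Tbx19 (-0.87, SE 0.032, limma adjusted p 1.16e-10).

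Around Tbx19, the nearest gene Sft2d2 (33.7 kb) rose by 0.33 (SE 0.033), Nme7 by 0.25 and RP23-187M7.5 by 0.12, while Blzf1 and Tiprl were not called. Around Luzp1, Kdm1a (133.0 kb between starts) rose by 0.22 and Zfp46 by 0.19, Zbtb40 fell by 0.48 and Hnrnpr by 0.17, and Asap3 and Wnt4 were not called. Around Maged1, Spin4 (0.20), Eif2s3x (0.18) and Zxdb (0.15) rose, Apoo fell by 0.13, and Klhl15 and Zxda were not called. Around Amotl1, Mre11a (0.20) and Fut4 (0.084) rose beside Endod1, Sesn3 fell by 0.48, and Cwc15 and Ankrd49 were not called. None of the 24 neighbours in the table rose by over 3 log2 units. Few genes did, since Fetub at 3.01 was number 12 in the order over all genes in ERT2 cells. With the 4 genes chosen for their large rises, this contrast follows largely from the choice and was not tested.

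**Figure D5:**
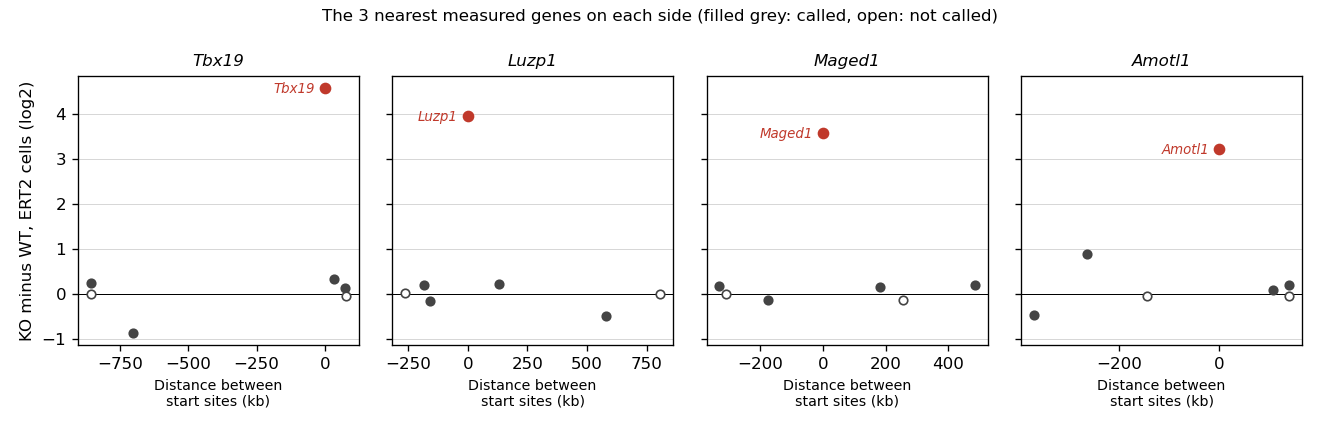
KO minus WT difference in ERT2 cells (log2, vertical axis) of each of the 4 genes (red) and of its 3 nearest measured genes on each side, against the distance between start sites in kb (horizontal axis, negative toward lower coordinates). Filled grey points passed an adjusted p under 0.05. The neighbours lie between -0.87 and 0.88, against 3.21 to 4.57 for the 4 genes, which were chosen for large rises.

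The genes most like each of the 4 were found by the Euclidean distance between group means, each gene centered on its own mean over the 4 groups. Closest to Tbx19 were Uaca (distance 0.48 log2 units), Mmrn1 (0.50) and Mmp2 (0.57). Closest to Luzp1 were Tead1 (0.17), Mmrn1 (0.26) and Uaca (0.36). Maged1 and Amotl1 were near each other (0.26), and Ak4 was the closest gene to Amotl1 (0.19) and the second closest to Maged1 (0.37), followed by Tead1 for Maged1 (0.48) and Fetub for Amotl1 (0.37).

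With stabilized β-catenin, Uaca rose by 0.53 in KO cells (limma adjusted p 1.56e-06) and Mmp2 by 1.09 (limma adjusted p 5.91e-11). In WT cells their differences were 0.0037 and 0.0042, at the near-constant low ends described above, where a small response may not be visible. Tead1, Mmrn1 and Ak4 were not called in either background, as Luzp1 and Amotl1 were not. Fetub fell by 0.30 in WT and by 0.22 in KO cells (limma adjusted p 0.00142 and 0.00996). Ranking by Pearson correlation over the 12 libraries instead kept 2 of the 12 nearest genes.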

How the data were processed

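RNA-seq libraries were made from sorted pre-B cells with a stranded kit. The authors deposited 1 table of normalized log2 expression values for 12151 genes in 12 libraries. The submitters' processing notes name Salmon 1.4.0, STAR 2.7.6, DESeq2 1.30.1 and mm10; the log transformation, its offset, and whether quantification used strand are not given in the sources used here. No read counts were used, so depth is unknown.

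From these values, limma 3.58.1 (R 4.3.3; 4 group means, eBayes with trend) gave differences, standard errors and P values adjusted by the Benjamini-Hochberg method over all 12151 genes. Genes under an adjusted p of 0.05 were called. The code was tested on simulated data. Exact 2-sided permutation tests were added for single genes. KO minus WT differences of the 4 genes carry no P value. The members and lists were chosen with earlier results of these data known. Named genes were the called members of each list with the largest differences in each direction, all measured relatives, the 3 nearest measured genes on each side, and the 3 genes most alike. A few genes that this rule names are counted in their lists but not reported here. Positions come from GENCODE M21 (12111 genes matched) and promoters from RefSeq. Alternatives were the scale, normalization, filter, weights, samples in the fit, a replicate block and leaving out each library.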

Additional observations from a re-analysis of the deposited data

Results flagged for a closer look

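Of 88 genes chosen by the naming rule, 15 had a β-catenin effect that differed between KO and WT cells when the difference itself was tested (limma interaction, adjusted p over all genes), and 4.53% of all genes did. Many of the 88 were named for large KO minus WT differences in ERT2 cells, which share libraries with this test. The naming can thus raise their share, and no result is read from it. Values below are the effect in KO minus that in WT cells, in log2 units.

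Among the 4 genes, Maged1 differed by -0.2181 (adjusted p 0.0489). Among the genes most like them, Mmp2 differed by 1.0825 (adjusted p 8.2e-09) and Uaca by 0.5242 (adjusted p 0.000114), both higher with β-catenin in KO cells. The distance that chose these genes used the same group means. In WT cells both lay at a near-constant low end (ranges over 6 libraries of 0.063 and 0.028), so a small response there may not be visible, and the tests do not show that the backgrounds respond differently. In the Hippo pathway of Amotl1, Ptpn14 differed by 0.5768 (adjusted p 2.4e-05), with effects of 0.062 in WT and 0.64 in KO cells. Its ERT2 WT libraries were near constant too (mean 5.98, SD 0.0033), so its response in WT cells may not be fully visible. Frmd6 differed by 0.228 (adjusted p 0.0106) and Stk4 by 0.1195 (adjusted p 0.0311). The YAP readouts Ajuba and Nt5e differed by 0.2832 (adjusted p 0.00568) and 0.1556 (adjusted p 1.29e-05). Ajuba was higher with β-catenin in KO cells, while Nt5e was lower with it in WT cells. The WT libraries of Ajuba were near constant as well, at 5.32 to 5.37, so a small response there may not be visible. Nt5e was at 3.57 to 3.58 in all 6 KO libraries, a near-constant low end at which a further fall may not be visible. Its test therefore does not show that the backgrounds respond differently.

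Among junction genes, Inadl differed by -0.3681 (adjusted p 0.0293), with effects of 0.27 in WT and -0.10 in KO cells, and Ctnna1 by -0.1634 (adjusted p 0.0119). The cilium gene Cep164 differed by -0.2215 (adjusted p 0.0115), with effects of 0.28 in WT and 0.058 in KO cells. The corticotroph gene Nr4a1 differed by 0.1366 (adjusted p 0.011). Its WT libraries were near constant too, at 5.22 to 5.24 with ERT2 and 5.19 with Cre-ERT2, so its response there may not be fully visible. Beside Amotl1, Fut4 differed by 0.1865 (adjusted p 0.0293), and beside Tbx19, RP23-187M7.5 by -0.0955 (adjusted p 0.0357). Outside the rule, the markers Lyz2 and Cd5 differed by 0.2428 (adjusted p 0.0145) and 0.5063 (adjusted p 0.000196), and the values of Gm5537 are given among the other observations. Pre-B cell markers differed as well, with 1 of 12 called higher and 2 lower. The targeted gene Ikzf1 differed by -0.1047 (adjusted p 0.0422).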

How the results depend on the processing

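Over 21 alternatives the KO minus WT differences in ERT2 cells lay between 4.54 and 4.58 for Tbx19, 3.89 and 3.99 for Luzp1, and 3.17 and 3.24 for Amotl1; in Cre-ERT2 cells that of Maged1 lay between 3.31 and 3.38. The β-catenin effects of Tbx19 kept their call in both backgrounds throughout. The difference of Maged1 between backgrounds lost its call after centering libraries on their medians (-0.21961, adjusted p 0.0506), with quantile normalization (-0.20774, adjusted p 0.0502), with array weights (-0.21189, adjusted p 0.0629), and, at -0.2181, among genes with a mean above 6 (adjusted p 0.0503), at an adjusted p under 0.01, and with the replicate block (adjusted p 0.0841). Without 1 library it lay between -0.24939 and -0.17485, and only without ERT2 WT replicate 1 or Cre-ERT2 WT replicate 3 was it called. The cause was not tested. Fitted to WT libraries alone, the rise of Maged1 was 0.19044 (adjusted p 0.0593). Leaving out a library put the WT effect of Luzp1 between -0.15382 and -0.049835 and its difference between backgrounds between 0.13271 and 0.2367, both called without ERT2 WT replicate 1.

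Genes called for β-catenin in KO cells numbered 934 when fitted to KO libraries alone, against 1531. At an adjusted p under 0.01, 787 genes were called for the WT effect, 790 for the KO effect and 240 for their difference. Small differences of uncalled relatives changed sign. With median centering, those of Tbx6 and Mga in ERT2 cells were -0.026773 and -0.016204 (that of Tbx6 then called, adjusted p 0.024) and that of Ndnl2 in Cre-ERT2 cells -0.028831, or -0.026185 with quantile normalization. Without 1 library, the Cre-ERT2 differences ranged from -0.012007 to 0.00086369 for Tbx6, from -0.0010864 to 0.095666 for Mga and from -0.010382 to 0.017909 for Ndnl2. Replicate numbers did not pair the samples. Of 18 same-number pairs, 1 correlated above 0.1 (range -0.101 to 0.244), and 6 of 12 libraries were closest to their own number. With the replicate number as a block, 1361 genes were called for the WT effect, 1374 for the KO effect and 424 for their difference, against 1443, 1531 and 550. Fitting only the groups of the difference uses all libraries and was not run apart. Precision rests on 3 libraries a group.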

Other observations

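Gm5537, chosen after its values were seen, had a rise in ERT2 KO cells between those of Maged1 and Amotl1 but another pattern. It lay at 7.57, 7.57 and 7.56 in ERT2 WT libraries, at 10.60, 10.60 and 10.47 in Cre-ERT2 WT libraries, at 11.06, 11.20 and 10.91 in ERT2 KO libraries, and at 11.62, 11.39 and 11.54 in Cre-ERT2 KO libraries. Its β-catenin effect was 2.99 in WT cells and 0.46 in KO cells. The difference of -2.53 is the pattern it was chosen for, so no P value is given.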
